A study of Mus musculus with 8 samples.

Results

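The HIF1 and beta-catenin target genes are 34 genes, 21 from the hypoxia pathway and 13 from the Wnt pathway, picked by name as targets of the 2 transcription factors that nuclear PKM2, an isoform of pyruvate kinase, was proposed to assist. They include the genes of the factors themselves, Hif1a and Ctnnb1, which are counted in the 2 sets below. A probe set stands for a gene where the array's annotation gives that symbol, and for a gene with several probe sets the one with the highest mean over the 8 samples was used. In this way 33 of the 34 were found among 19938 measured genes, 21 in the HIF1 set and 12 in the beta-catenin set. Tcf7 had no probe set with its symbol, alone or shared with other genes, and was not analysed here. RNA of primary mouse embryonic fibroblasts, cells grown out of embryos, was hybridised to Affymetrix arrays. The 4 groups held 2 samples each: line B (MEF16) with tamoxifen and expressing PKM1, line B without tamoxifen and expressing PKM2, line A (MEF10) with tamoxifen and expressing PKM1, and line A without tamoxifen and expressing PKM2. The drug and the change of isoform always came together, so their effects cannot be told apart. The labels do not say how tamoxifen changes the isoform, whether each line came from 1 embryo, or whether a group's samples were grown separately. The p-values therefore measure the spread between the arrays of a group, and that spread may be purely technical. For effects over both lines and between the lines, the spread used also takes in any difference between the lines in the tamoxifen effect.

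HIF1 is the factor through which cells answer low oxygen. While oxygen is present, prolyl hydroxylases of the Egln family mark its alpha subunit for destruction, and when oxygen falls the subunit persists, pairs with ARNT and binds a short DNA core in genes for glycolysis, blood vessel growth, mitophagy and collagen processing. Beta-catenin is destroyed in a complex built on Axin and APC until a Wnt signal stops that complex, after which it enters the nucleus, joins factors of the TCF/LEF family and turns on its own inhibitors along with growth genes. Fibroblasts use the collagen-processing branch of the first pathway and respond to Wnt signals in development and wound repair.

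The promoter windows below, from 250 bases before to 50 bases after the annotated start, are shown for the HIF1 targets with the smallest p-values between the lines (Adm and Egln3), for the HIF1 target with the most matches to the HIF core (Bnip3), and for the beta-catenin target with the most matches to the TCF/LEF core (Sp5). They come from RefSeq on build GRCm38.p6 and read 5′ to 3′ on the gene's strand. Capitals mark matches to the HIF core, ACGTG or GCGTG, in Adm (chr7:110627407-110627706, plus strand), Egln3 (chr12:54203825-54204124, minus strand) and Bnip3 (chr7:138909457-138909756, minus strand), and matches to the TCF/LEF core in Sp5 (chr2:70474673-70474972, plus strand). The TCF/LEF core was spelled as the letters CTTTGAA, or alternatively with the ending AT in place of AA, or with the ending TA, or with the ending TT. Both strands were searched, so CACGC is the core GCGTG read from the other strand, and CACGTG holds 2 overlapping matches.
Adm: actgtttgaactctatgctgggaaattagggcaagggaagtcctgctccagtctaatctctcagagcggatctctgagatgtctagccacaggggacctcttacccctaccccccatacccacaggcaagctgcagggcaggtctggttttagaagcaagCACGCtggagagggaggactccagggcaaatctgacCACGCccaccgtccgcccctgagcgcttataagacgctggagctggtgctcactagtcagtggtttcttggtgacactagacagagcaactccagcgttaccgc
Egln3: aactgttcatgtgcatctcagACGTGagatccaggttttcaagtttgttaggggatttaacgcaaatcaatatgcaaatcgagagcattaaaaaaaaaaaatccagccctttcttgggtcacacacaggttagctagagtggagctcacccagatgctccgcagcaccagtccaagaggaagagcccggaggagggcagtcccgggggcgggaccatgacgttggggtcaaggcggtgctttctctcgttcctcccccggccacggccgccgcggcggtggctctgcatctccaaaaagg
Bnip3: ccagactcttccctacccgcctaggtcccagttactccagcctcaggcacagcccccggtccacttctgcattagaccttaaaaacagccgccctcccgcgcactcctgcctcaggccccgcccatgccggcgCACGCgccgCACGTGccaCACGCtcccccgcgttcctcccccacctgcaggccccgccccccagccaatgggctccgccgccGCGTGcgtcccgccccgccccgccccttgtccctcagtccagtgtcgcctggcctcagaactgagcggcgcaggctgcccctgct
Sp5: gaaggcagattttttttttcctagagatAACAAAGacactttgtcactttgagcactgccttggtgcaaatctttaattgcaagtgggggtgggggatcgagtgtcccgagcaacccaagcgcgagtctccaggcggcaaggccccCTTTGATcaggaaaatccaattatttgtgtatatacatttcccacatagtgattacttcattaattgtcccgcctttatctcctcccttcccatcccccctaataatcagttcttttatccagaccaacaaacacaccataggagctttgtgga

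The Adm window held 2 matches to the HIF core, Egln3 1 and Bnip3 5, and the Sp5 window held 2 matches to the TCF/LEF core. RefSeq's table had windows for 26 of the 34 members. In the HIF1 set, 21 of 26 windows (80.8%), from 17 of 18 genes (all but Car12), held the HIF core, against 43.8% of 32851 windows of all genes. In the beta-catenin set, 2 of 14 windows (14.3%) held the TCF/LEF core, against 16.9% of all windows. The members are known targets, some of them known through such sites, and a match of these letters is no proof of binding.

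All 10 fibroblast markers had log2 values above the median over all probe sets of 7.19, from 9.09 for Col3a1 to 13.19 for Fn1, while 1 of 9 epithelial and mammary markers did (Krt8, 7.61). Some label fields name mammary tumors, and the epithelial marker Epcam was at 6.00. The line B samples stood further apart than the line A samples: over all genes, samples of a group correlated at 0.9894 in line B with tamoxifen, 0.9907 in line B without, 0.9974 in line A with and 0.9956 in line A without. The leading axis of variation within groups held 61.8% of that variation. It placed line B PKM1 replicate 1 (16.3) and line B PKM2 replicate 2 (15) at one end. The other line B samples stood at the opposite end (-16.3 and -15). Line A PKM2 replicates 1 and 2 also stood apart on it, at 7.3 and -7.3, and those of line A PKM1 at 1.9 and -1.9. Leaving out line B arrays does not remove that line A part. For members named below as following this axis in line B, estimates are given with and without line B PKM1 replicate 1 and PKM2 replicate 2. They are given over both lines, between the lines, or both. In bulk RNA, fewer cells of a kind and less RNA per cell cannot be told apart. No detection calls were used, and 7 of the 33 members had a mean log2 value below 7.19 (Pfkfb4, Car12 and Car9, and Sp5, Rnf43, Notum and Znrf3), so they may be close to background, where a change is understated.

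No member of either set was called for tamoxifen. Over both lines, 0 of 33 members passed an adjusted p of 0.05 in limma, against 1.32% of all genes (263 of 19938). At an unadjusted p under 0.05 there were 6 members, 3 higher and 3 lower, against 9.85% of all genes; they were Lgr5, Nkd2 and Bnip3, which were higher, and Car12, Adm and Myc, which were lower. In 0 of 33 members did the 4 samples with tamoxifen stand clear of the 4 without, against 5.31% of all genes. The median log2 fold change, with minus without tamoxifen, was 0.01 in the HIF1 set (12 members above 0 and 9 below) and -0.01 in the beta-catenin set (5 above and 7 below), beside -0.01 over all genes. With arrays weighted by their quality, 4 members were called, Lgr5, Nkd2 and Bnip3 higher and Myc lower, and the count over all genes was 983.

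The intervals limit the average change over both lines only as far as the spread in the fit allows. That spread joins the one between the arrays of a group, which may be purely technical, with any difference between the lines in the tamoxifen effect. For all 33 members the 95% interval of the log2 fold change over both lines lay within 1 on either side of 0, that is, within a 2-fold change on the RMA scale, and for 31 it lay within 0.5. The other 2 were the most variable members, P4ha2 (-0.52 to 0.27) and Higd1a (-0.15 to 0.52). In each line by itself, 25 of 33 intervals lay within 0.5 and all 33 within 1. The widest reached -0.84 for P4ha2 in line B and 0.72 for Higd1a in line A. These intervals hold for each gene alone, and RMA compresses differences of dim probe sets.

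**Figure D1:**
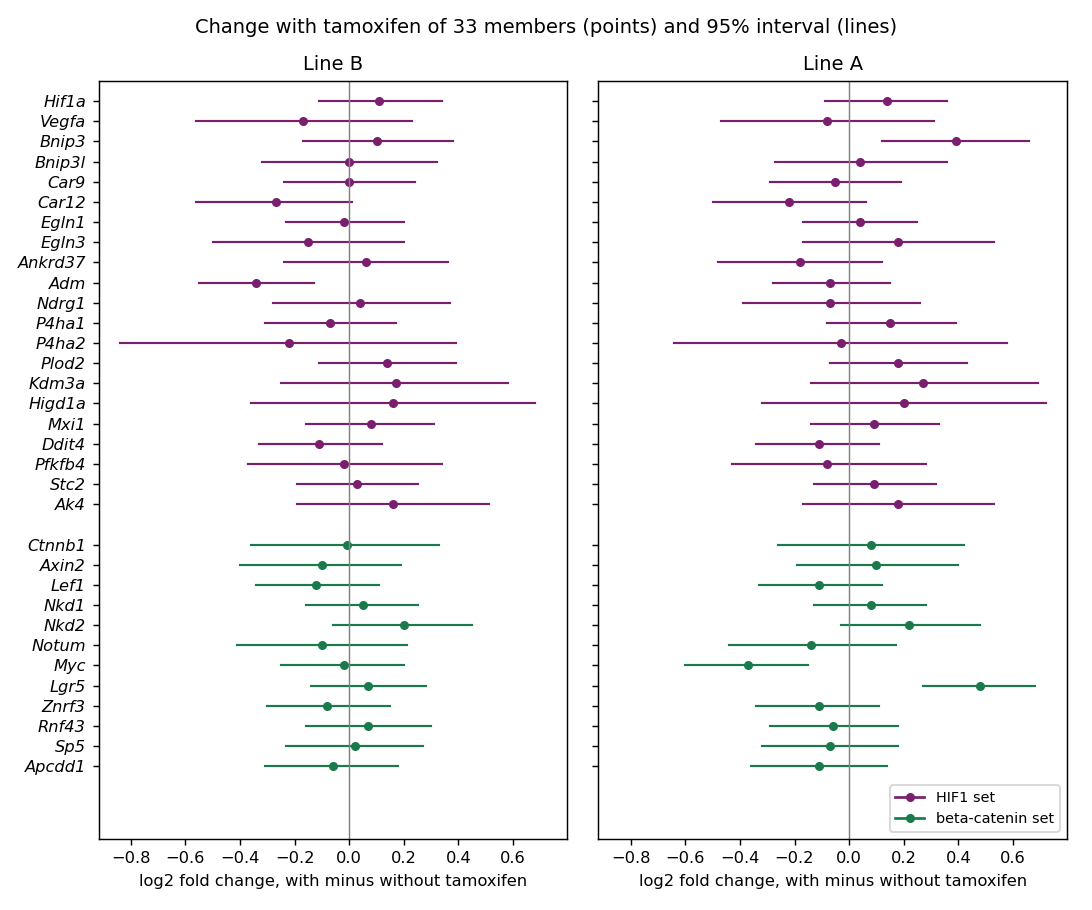
Log2 fold change with minus without tamoxifen (horizontal axis) of each of 33 members, in line B (left) and line A (right); points are limma estimates and lines 95% intervals, purple for the HIF1 set and green for the beta-catenin set. Most intervals cross 0; those of Adm in line B and of Bnip3, Lgr5 and Myc in line A do not.

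Each line was also tested by itself. In line B 0 of 33 members passed in limma (0.0201% of all genes), and 1, Adm, had an unadjusted p under 0.05 (4.82% of all genes). In line A 0 of 33 passed (0.502% of all genes), and 3, Lgr5, Myc and Bnip3, had an unadjusted p under 0.05 (8.1%). The samples with and without tamoxifen did not overlap for 4 of 33 members in line B, against 24.8% of all genes, and for 21 of 33 in line A, against 47.6% of all genes. The beta-catenin set supplied 10 of those 21, 5 higher and 5 lower with tamoxifen. That was 10 of its 12 genes (83.3%), beside 11 of 21 (52.4%) in the HIF1 set. In line B the counts were 1 of 12 (8.33%) and 3 of 21 (14.3%). With 2 samples on each side such separation is common, and genes measured on the same arrays are no independent replicates.

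The sets were then set side by side over the 4 groups. Taking each gene as its deviation from its own mean over the 8 samples, the median of the HIF1 set was -0.02 in line B with tamoxifen, 0.00 in line B without, 0.05 in line A with and -0.01 in line A without. The median of the beta-catenin set was 0.02, 0.06, -0.03 and 0.01 in the same 4 groups, while over all genes it lay between -0.02 and 0.01. The beta-catenin medians were thus above the HIF1 medians in 3 groups and below it in line A with tamoxifen. No test was made of a set.

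**Figure D2:**
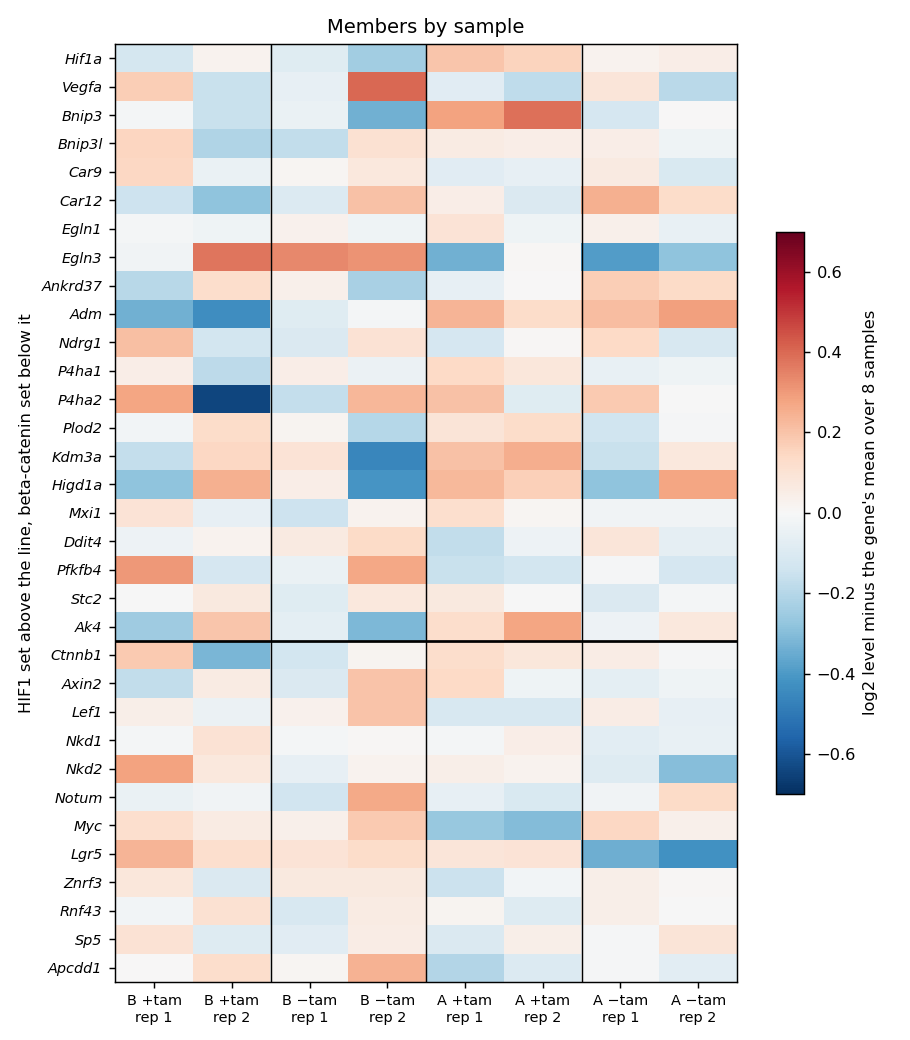
Log2 level of 33 members (rows) in each of the 8 samples (columns), as the difference from the gene's mean over the 8 samples; red is above and blue below that mean. Lgr5 is below its mean in both line A samples without tamoxifen and Myc in both line A samples with it, while several HIF1 targets, such as P4ha2 and Higd1a, differ in colour between the replicates of line B.

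Hif1a, which encodes the oxygen-regulated subunit, had log2 levels of 11.41 and 11.56 in line B with tamoxifen, 11.45 and 11.29 in line B without, 11.73 and 11.69 in line A with, and 11.56 and 11.58 in line A without. The line B samples lay below the line A samples, although the highest line B value and the lowest line A value, both 11.56, differ by less than the rounding. The difference of line B minus line A was -0.21 (SE 0.07, adjusted p = 0.278 in limma) and did not pass. With tamoxifen the estimates were 0.11 in line B (SE 0.10) and 0.14 in line A (SE 0.10).

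Egln1 and Egln3 encode hydroxylases that mark HIF1 alpha for destruction and are themselves HIF1 targets, a negative feedback. Egln1 had the narrowest range in the HIF1 set, with all 8 log2 levels between 9.26 and 9.41. Egln3 had 7.59 and 7.99 in line B with tamoxifen, 7.95 and 7.93 in line B without, 7.28 and 7.62 in line A with, and 7.22 and 7.33 in line A without. The lines overlapped by 1 sample on each side, line B PKM1 replicate 1 and line A PKM1 replicate 2. Line B was higher by 0.50 (SE 0.11, 1.42-fold, adjusted p = 0.0711 in limma), which missed the threshold. It passed without line B PKM1 replicate 1 (0.62, adjusted p = 0.00931), without line A PKM1 replicate 2 (0.60, 0.0477), and without line B PKM1 replicate 1 and PKM2 replicate 2 together (0.61, 0.00954), against a range of 0.00931 to 0.295 over 16 alternatives.

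Adm, which encodes the secreted vasodilator peptide adrenomedullin, was the 1 member called in any of the 5 comparisons. Its log2 levels were 9.12 and 9.02 in line B with tamoxifen, 9.37 and 9.44 in line B without, 9.69 and 9.58 in line A with, and 9.67 and 9.74 in line A without. All 4 line B samples lay below all 4 line A samples, and within line B the samples with tamoxifen lay below those without. Line B averaged 9.24 and line A 9.67, a log2 fold change of -0.43 (SE 0.08, n = 4 against 4, 0.741-fold, adjusted p = 0.0206 in limma). The call was lost without line A PKM2 replicate 2 (adjusted p = 0.0762), line A PKM1 replicate 1 (0.108), line A PKM1 replicate 2 (0.102) or line B PKM1 replicate 2 (0.0509), and the adjusted p ranged from 0.00942 to 0.108 over 16 alternatives, with an estimate between -0.47 and -0.38. With line B PKM1 replicate 1 and PKM2 replicate 2 both left out it was -0.47 (adjusted p = 0.0197).

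With tamoxifen the Adm estimate was -0.34 in line B (SE 0.09, unadjusted p = 0.00601, adjusted p = 0.615 in limma) and -0.07 in line A. The difference between those effects, -0.27 (95% interval -0.57 to 0.03), did not pass. Over both lines the estimate was -0.20 (SE 0.08, adjusted p = 0.359).

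The lines as such were compared across both treatments. Of 33 members 1 passed in limma, Adm, lower in line B, against 1.47% of all genes (293 of 19938, 150 higher and 143 lower in line B). At an unadjusted p under 0.05 there were 7 members, against 8.15% of all genes. In the HIF1 set these were Egln3, higher in line B, and Adm, Hif1a and Bnip3, lower in line B; in the beta-catenin set they were Lgr5, Apcdd1 and Myc, all higher in line B. The 4 line B and 4 line A samples did not overlap for 3 members, Adm, Hif1a and Apcdd1, against 4.89% of all genes. The median of line B minus line A was -0.06 in the HIF1 set (7 above 0 and 14 below) and 0.05 in the beta-catenin set (9 above and 3 below), beside 0.02 over all genes.

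Markers of several cell types also differed between the lines. Of 8 macrophage and blood markers, 2 had means above the probe set median (Lyz2 and Cd68), and 2 were called higher in line B, Lyz2 (1.83) and Adgre1 (0.59), and the list's mean log2 level was 7.03 to 7.06 in line B with tamoxifen, 6.86 to 6.89 in line B without, 6.45 to 6.52 in line A with and 6.34 to 6.45 in line A without. The leukocyte marker Ptprc, at 6.56, and the myeloid marker Itgam, at 5.84, had means below the probe set median, as did Adgre1 at 5.90. Line B minus line A was 0.51 for Ptprc (adjusted p = 0.132 in limma) and 0.28 for Itgam (0.314), neither called. The lowest estimate in the list was 0.05, for Cd74. In the other lists, 1 of 6 endothelial markers (Erg, -0.48) was lower in line B. Of 5 neural and glial markers Tubb3 was higher (0.85) and Map2 lower (-0.78), 1 of 5 muscle markers was higher (Acta1, 0.60), and 1 of 10 fibroblast markers was higher (Thy1, 0.57). The part of any of these in the Adm or Egln3 difference was not tested.

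**Figure D3:**
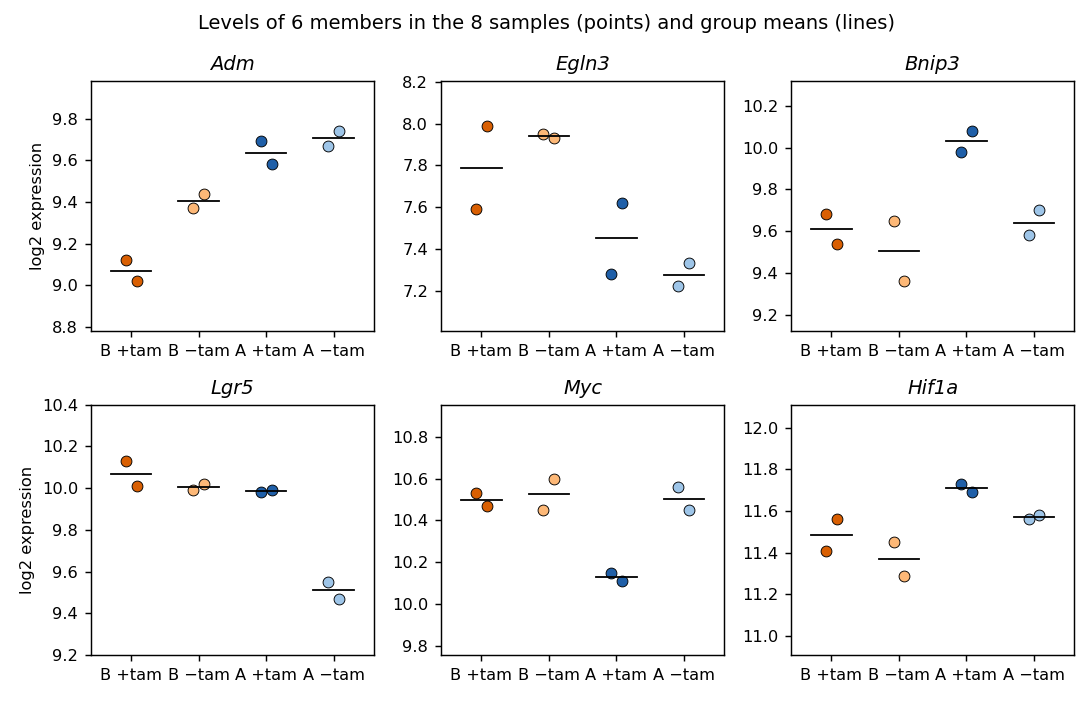
Log2 level (vertical axis) of 6 members in each sample (points, 2 per group) with group means (lines); groups are line B with (+tam) and without (−tam) tamoxifen and line A with and without. Adm is lower in every line B sample than in any line A sample, and Lgr5 and Myc each have 1 line A group apart from the other 3 groups.

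The other secreted factors of the HIF1 set did not pass. Vegfa, the main growth factor of blood vessels, had log2 levels of 9.28 and 8.95 in line B with tamoxifen, 9.05 and 9.51 in line B without, 9.03 and 8.93 in line A with, and 9.19 and 8.92 in line A without. The groups overlapped, and the estimate over both lines was -0.12 (SE 0.11). Stc2, a secreted glycoprotein induced by hypoxia and stress, kept between 8.02 and 8.20 in all samples.

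A group of 4 HIF1 targets acts in mitochondria or their removal. Bnip3 and Bnip3l encode receptors that mark mitochondria for autophagy, Higd1a a small inner membrane protein tied to the respiratory chain, and Ak4 an adenylate kinase of the matrix. Bnip3 had log2 levels of 9.68 and 9.54 in line B with tamoxifen, 9.65 and 9.36 in line B without, 9.98 and 10.08 in line A with, and 9.58 and 9.70 in line A without. Both line A samples with tamoxifen lay above all other samples, and the line B groups overlapped. The change was 0.10 in line B (SE 0.12) and 0.39 in line A (SE 0.12, unadjusted p = 0.0102, adjusted p = 0.340 in limma), and over both lines 0.25 (SE 0.09, adjusted p = 0.351).

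These 4 genes were the 4 members with a pair of probe sets, and for each the rule took the brighter one. In each case the 10 named probe sets with the nearest numbers to the brighter one belonged to genes of another chromosome: chromosome 14 for Bnip3, a gene of chromosome 7; 12 for Bnip3l, of chromosome 14; 3 for Higd1a, of chromosome 9; and 2 for Ak4, of chromosome 4, per the RefSeq gene table. Of the 37 probe sets of members, these 4 were the ones whose neighbours lay elsewhere. RefSeq lists a pseudogene Bnip3l-ps on chromosome 12, among the genes of those neighbours. Which transcripts the brighter probe sets measure was not tested.

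The dimmer probe sets, numbered among their gene's own chromosome, tracked the brighter ones over the 8 samples with a Pearson r of 0.97 for Bnip3l, 0.92 for Higd1a, 0.87 for Bnip3 and 0.67 for Ak4. The dimmer Bnip3 probe set gave log2 levels of 9.18 and 9.17 in line B with tamoxifen, 9.25 and 8.97 in line B without, 9.71 and 9.56 in line A with, and 9.26 and 9.57 in line A without. The line A samples with tamoxifen no longer stood clear, as 1 of them was just below a sample without, and the change over both lines was 0.14 (SE 0.09), against 0.25 for the brighter one. For Higd1a the dimmer probe set gave the larger estimate, 0.41 over both lines (SE 0.14, adjusted p = 0.314 over the probe sets), against 0.18 (SE 0.15). For Ak4 it gave -0.12 in line B and 0.35 in line A (SE 0.13 each), where the brighter one gave 0.16 and 0.18 (SE 0.15 each). None of the 8 probe sets passed for tamoxifen or for the lines, and with the dimmer ones in the fit 0 members were called for tamoxifen and 1, Adm, for the lines.

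**Figure D4:**
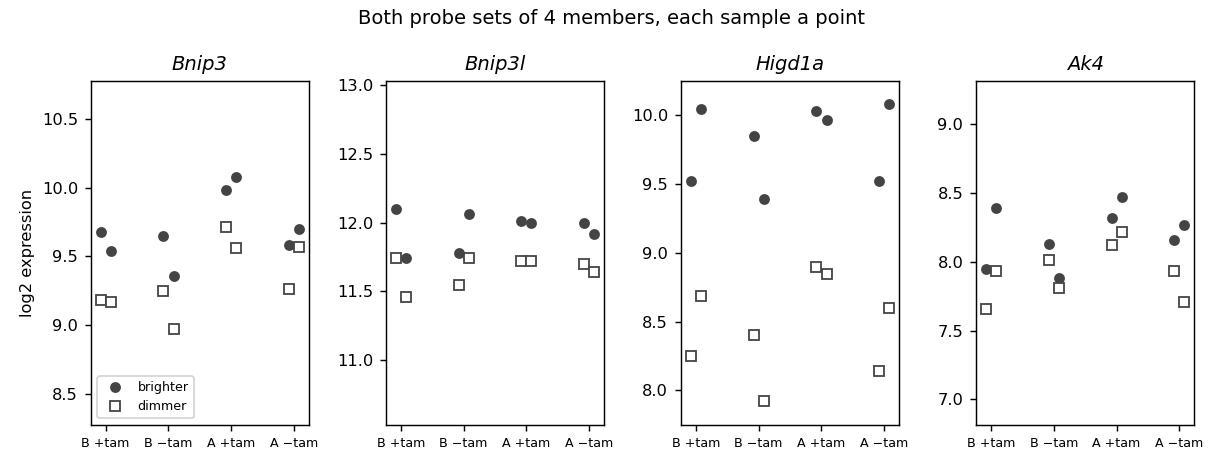
Log2 level (vertical axis) of the brighter (filled circles) and dimmer (open squares) probe set of Bnip3, Bnip3l, Higd1a and Ak4 in each of the 8 samples, by line (B, A) and with (+tam) or without (−tam) tamoxifen. The 2 probe sets follow the same samples up and down most closely in Bnip3l and least in Ak4.

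Members with roles in acidity and glycolysis were among the dimmest of the HIF1 set and did not pass. Car9 and Car12 encode carbonic anhydrases of the cell surface that help to export acid, and Pfkfb4 an enzyme that sets the level of a glycolysis activator. Car12 had log2 levels of 6.74 and 6.60 in line B with tamoxifen, 6.79 and 7.09 in line B without, 6.93 and 6.78 in line A with, and 7.13 and 7.01 in line A without. Within each line the samples with tamoxifen lay below those without, and the estimate over both lines was -0.25 (SE 0.08, unadjusted p = 0.0142, adjusted p = 0.296 in limma). Car9 stayed between 6.96 and 7.21.

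Plod2, P4ha1 and P4ha2 encode enzymes that hydroxylate lysine and proline in collagen, the form in which HIF1 acts on the matrix that fibroblasts lay down. Plod2 had a log2 fold change with tamoxifen of 0.14 in line B and 0.18 in line A (SE 0.11 each), and 0.16 over both lines (SE 0.07, adjusted p = 0.517). P4ha1 gave 0.04 over both lines (SE 0.08). P4ha2 had the widest spread of all members, with log2 levels of 9.60 and 8.68 in line B with tamoxifen, 9.16 and 9.56 in line B without, 9.53 and 9.24 in line A with, and 9.51 and 9.32 in line A without. Its lowest value was line B PKM1 replicate 2, 0.92 below the other sample of that group.

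The remaining HIF1 targets were Kdm3a, a histone demethylase, Mxi1, an antagonist of MYC, Ddit4, an inhibitor of mTORC1, Ndrg1, a stress-responsive gene of growth arrest, and Ankrd37, an ankyrin repeat gene. Their estimates over both lines were 0.22 (SE 0.12), 0.08 (SE 0.07), -0.11 (SE 0.07), -0.01 (SE 0.10) and -0.06 (SE 0.10), and none passed. Ddit4 was lower with tamoxifen in both samples of line B than in both without, while in line A the samples overlapped.

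Most members of the HIF1 set, like most genes, differed between the line B replicates in the same direction along that axis. The pairs were oriented by the axis, which was drawn from these same arrays, so some agreement was built in. In 16 of 21 (76.2%, against 61.8% of all genes) the PKM1 difference, replicate 1 minus 2, and the PKM2 difference, replicate 2 minus 1, had the same sign, and in the other 5, Bnip3, Egln1, P4ha1, Ddit4 and Stc2, the signs were opposite. P4ha2, Vegfa, Pfkfb4, Bnip3l and Ndrg1 were higher in line B PKM1 replicate 1 than in replicate 2 (by 0.92, 0.33, 0.42, 0.36 and 0.34) and higher in line B PKM2 replicate 2 than in replicate 1 (by 0.41, 0.45, 0.33, 0.28 and 0.21). Higd1a, Kdm3a, Ak4 and Ankrd37 were lower in those same samples, by -0.53, -0.31, -0.44 and -0.32 in the PKM1 pair and by -0.46, -0.55, -0.25 and -0.27 in the PKM2 pair. In line A without tamoxifen the Higd1a replicates differed as much, at 9.52 and 10.08. Across the 21 genes of the HIF1 set the differences of the 2 pairs correlated with a Pearson r of 0.777, against 0.528 over all 19938 genes and -0.375 over the 12 genes of the beta-catenin set; the points share the same 4 arrays and are no independent replicates. The median size of a replicate difference in the HIF1 set was 0.23 in line B and 0.10 in line A, as large in line B as any change with tamoxifen over both lines except those of Lgr5, Car12 and Bnip3.

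With line B PKM1 replicate 1 and PKM2 replicate 2 both left out, the estimates over both lines were -0.18 for P4ha2, -0.09 for Vegfa, 0.20 for Higd1a, 0.20 for Kdm3a, 0.21 for Ak4, 0.02 for Bnip3l and -0.01 for Ctnnb1, against -0.13, -0.12, 0.18, 0.22, 0.17, 0.02 and 0.03 with all arrays. For Bnip3 it was 0.22, against 0.25. Between the lines, the estimates of P4ha2, Bnip3l and Ctnnb1 grew to -0.48, -0.22 and -0.28, against -0.15, -0.06 and -0.12. Vegfa went from 0.18 to -0.02, Higd1a from -0.19 to 0.05 and Kdm3a from -0.19 to 0.02. Ak4 went from -0.21 to -0.04, Pfkfb4 from 0.21 to 0.02, Ankrd37 from -0.13 to 0.01 and Ndrg1 from 0.04 to -0.09. None of these passed. The median of line B minus line A in the HIF1 set was -0.02, against -0.06.

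**Figure D5:**
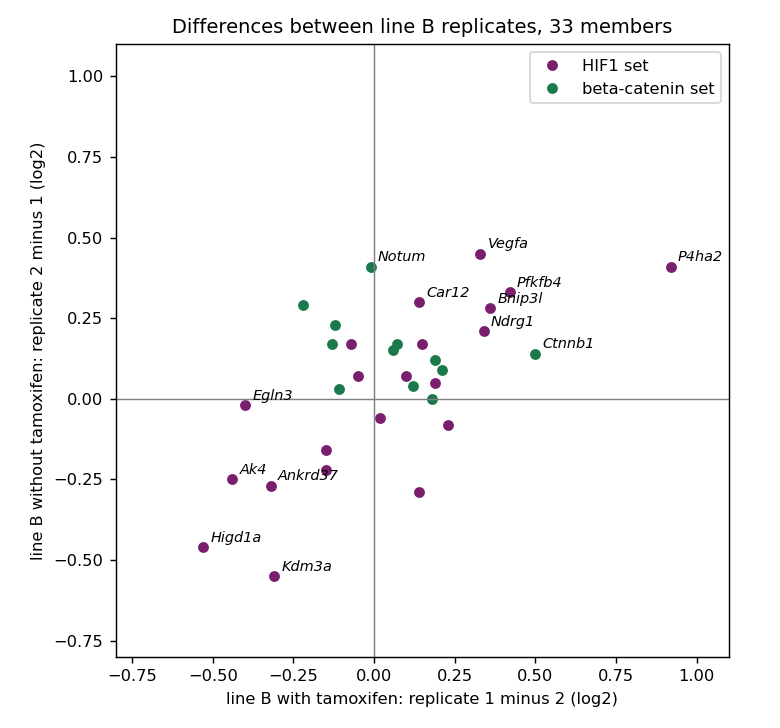
Difference in log2 level between the replicates of line B with tamoxifen (horizontal axis, replicate 1 minus 2) and without tamoxifen (vertical axis, replicate 2 minus 1) for 33 members; members differing by 0.3 or more in either pair are named. Of the HIF1 set 16 of 21 lie in the lower left or upper right quadrant. Higd1a and Kdm3a are at the lower left and P4ha2 and Vegfa at the upper right. Bnip3 and P4ha1 are among the 5 that lie outside these quadrants.

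How many members shared a direction of change in both lines varied with these arrays. With all samples 23 of 33 members had the same sign of change with tamoxifen in both lines (69.7%, against 59.2% of all genes). Leaving out line B PKM1 replicate 2 gave 18 members, against 54.5% of all genes, and leaving out line B PKM2 replicate 2 also gave 18, against 46.2%. Leaving out line B PKM1 replicate 1 gave 27 (57.7% of all genes), and line B PKM2 replicate 1 gave 25 (64.8%).

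The factor genes were also compared with the other members by their pattern over the 8 samples, which share lines and treatments and include the replicate axis above. The members most like Hif1a were Ak4, Kdm3a and Bnip3, with Pearson r of 0.89, 0.85 and 0.82. The members most like Ctnnb1 were Bnip3l (0.93), P4ha2 (0.91) and P4ha1 (0.74), all from the HIF1 set. The member most like Adm was Car12 (0.75). With line B PKM1 replicate 1 and PKM2 replicate 2 left out, leaving 6 samples, the members most like Hif1a were Mxi1 (0.96), Bnip3 (0.81) and Bnip3l (0.72), with Ak4 at 0.69 and Kdm3a at 0.52. Those most like Ctnnb1 were then Bnip3l (0.96), P4ha2 (0.93) and Adm (0.92), and the one most like Adm was P4ha2 (0.94), with Car12 at 0.86. These are descriptions of few samples, and over all 8 the median r of each factor gene with the other 32 members was -0.13 for Hif1a and 0.06 for Ctnnb1.

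Ctnnb1, which encodes beta-catenin itself, had log2 levels of 11.29 and 10.79 in line B with tamoxifen, 10.98 and 11.13 in line B without, 11.23 and 11.19 in line A with, and 11.16 and 11.10 in line A without. The 2 line B samples with tamoxifen were the highest and the lowest of all, and the estimate over both lines was 0.03 (SE 0.10, 95% interval -0.19 to 0.26). Lef1, a DNA-binding partner of beta-catenin, was between 7.25 and 7.56, with an estimate of -0.11 (SE 0.07).

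The feedback inhibitors, commonly read as a gauge of beta-catenin activity, did not pass. Axin2, the scaffold of the destruction complex that Wnt signals induce, averaged 7.45 with and 7.45 without tamoxifen, a log2 fold change of 0.00 (SE 0.09, 95% interval -0.20 to 0.20). Nkd1 and Nkd2 encode inhibitors of the Wnt signal transducer Dishevelled. Nkd1 kept between 7.46 and 7.63. Nkd2 had log2 levels of 7.54 and 7.33 in line B with tamoxifen, 7.20 and 7.28 in line B without, 7.30 and 7.28 in line A with, and 7.17 and 6.96 in line A without. Within each line its samples with tamoxifen lay above those without, and the estimate over both lines was 0.21 (SE 0.08, unadjusted p = 0.0194, adjusted p = 0.333 in limma).

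Inhibitors that act outside the cell or at the receptor did not pass either. Notum encodes an enzyme that strips the lipid from Wnt proteins, Apcdd1 a surface inhibitor, and Znrf3 and Rnf43 ubiquitin ligases that remove Wnt receptors. Their estimates over both lines were -0.12 (SE 0.09), -0.09 (SE 0.07), -0.10 (SE 0.07) and 0.01 (SE 0.07). Apcdd1 had 7.63 and 7.75 in line B with tamoxifen, 7.64 and 7.87 in line B without, 7.42 and 7.53 in line A with, and 7.62 and 7.55 in line A without. Its line B samples lay above its line A samples by a narrow margin, with a difference of 0.19 (SE 0.07, adjusted p = 0.435).

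Lgr5 and Myc held the most distinct group values of the beta-catenin set. Lgr5, a receptor for R-spondins that marks stem cells of several tissues, had log2 levels of 10.13 and 10.01 in line B with tamoxifen, 9.99 and 10.02 in line B without, 9.98 and 9.99 in line A with, and 9.55 and 9.47 in line A without. The line A samples without tamoxifen lay below all 6 others, which stood between 9.98 and 10.13. The change was 0.07 in line B (SE 0.09) and 0.48 in line A (SE 0.09, 1.39-fold, unadjusted p = 0.000639, adjusted p = 0.0777 in limma), and over both lines 0.27 (SE 0.09, adjusted p = 0.271). In line A it passed with array weights (adjusted p = 0.0088) and with line B taken out of the fit (0.0173), and its adjusted p ranged up to 0.708 over 15 alternatives, with an estimate between 0.43 and 0.51.

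Myc, the growth-promoting factor that both beta-catenin and other signals induce, had log2 levels of 10.53 and 10.47 in line B with tamoxifen, 10.45 and 10.60 in line B without, 10.15 and 10.11 in line A with, and 10.56 and 10.45 in line A without. The line A samples with tamoxifen lay below all others. The change was -0.02 in line B (SE 0.10) and -0.37 in line A (SE 0.10, unadjusted p = 0.00427, adjusted p = 0.208 in limma), and -0.20 over both lines (SE 0.09, adjusted p = 0.475). Proliferation markers were lower with tamoxifen, and 3 of the 5 measured fell in limma (Mki67, Ccna2 and Mcm6). Their mean log2 level was 9.67 and 9.87 in line B with, 10.25 and 10.05 in line B without, 9.55 and 9.56 in line A with, and 10.14 and 10.18 in line A without. Their part in the Myc values was not tested. Sp5, a transcription factor induced by Wnt signals, stayed between 6.41 and 6.61.

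Tested as an interaction of line and tamoxifen, the effects differed for 0 of 33 members and 0% of all genes in limma. At an unadjusted p under 0.05 there were 2 members, Lgr5 and Myc, against 2.83% of all genes. For Lgr5 the effect in line B minus that in line A was -0.41 (SE 0.13, 95% interval -0.70 to -0.11, unadjusted p = 0.0125), and for Myc 0.35 (SE 0.14, 0.04 to 0.66, unadjusted p = 0.0329), with an adjusted p of 1 for both.

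Beyond the members, 157 other genes of both pathways were measured from 8 lists. With tamoxifen over both lines 4 of them passed in limma, 2 higher and 2 lower (2.55%, against 1.32% of all genes). Of 26 other HIF1 targets outside glycolysis 1 rose, Igfbp3, which encodes a carrier of insulin-like growth factors: it averaged 10.18 with and 9.29 without tamoxifen, a log2 fold change of 0.88 (SE 0.16, adjusted p = 0.0292). Igfbp3 also rose in line A, by 1.31 (SE 0.14, adjusted p = 0.0119), while its estimate in line B was 0.46 (SE 0.14, adjusted p = 0.718). Of those 26 targets 6 had an unadjusted p under 0.05 over both lines, against 9.85% of all genes. Of 21 glycolysis targets and of 12 HIF subunits and oxygen sensors 0 passed, with 1 and 0 at an unadjusted p under 0.05 (9.85% of all genes). The smallest p-values in these lists belonged to Gbe1 (0.34, SE 0.12) and Pfkfb3 (0.19, SE 0.09), and to Ep300 (-0.15, SE 0.09) and Epas1 (0.13, SE 0.09), which encodes HIF2 alpha.

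On the Wnt side 1 of 18 ligands and R-spondins fell, 1 of 14 secreted antagonists rose and 1 of 26 other beta-catenin targets fell. At an unadjusted p under 0.05 these lists held 2, 3 and 4 genes, against 9.85% of all genes. Rspo2, a secreted ligand of Lgr receptors that strengthens Wnt signals, averaged 8.18 with and 8.64 without tamoxifen (log2 fold change -0.46, SE 0.07, adjusted p = 0.00909 in limma). Sfrp2, a secreted protein that binds Wnts, averaged 8.85 with and 8.38 without (0.47, SE 0.07, adjusted p = 0.00968). Birc5, the inhibitor of apoptosis survivin, which also acts in mitosis, averaged 9.37 with and 9.87 without (-0.50, SE 0.07, adjusted p = 0.00971), alongside the proliferation markers above. Of 27 Wnt receptors and destruction complex genes and of 14 other TCF/LEF factors and coactivators 0 passed, with 6 and 1 at an unadjusted p under 0.05, against 9.85% of all genes. The smallest p-values belonged to Wls (0.19, SE 0.07), which carries Wnts to the cell surface, and the Wnt receptor Fzd6 (-0.17, SE 0.06), and to the coactivators Bcl9 (-0.20, SE 0.07) and Bcl9l (-0.15, SE 0.08).

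Between the lines 5 of the 157 genes passed, all lower in line B (3.18%, against 1.47% of all genes). At an unadjusted p under 0.05, against 8.15% of all genes, there were 7 of 26 other beta-catenin targets. The count was 6 of 26 for other HIF1 targets outside glycolysis, 3 of 18 for ligands and R-spondins and 3 of 14 for secreted antagonists. It was 2 of 14 for TCF/LEF factors, 1 of 27 for receptors, 0 of 21 for glycolysis and 0 of 12 for oxygen sensing. Rspo2 was at 8.00 in line B and 8.82 in line A (-0.81, SE 0.07), Rspo3 at 9.34 and 9.95 (-0.61, SE 0.11), and their receptor Lgr4 at 9.19 and 9.66 (-0.48, SE 0.08). Sfrp2 was at 8.20 in line B and 9.04 in line A (-0.84, SE 0.07), and Cxcl12, a chemokine and HIF1 target, at 9.37 and 9.76 (-0.39, SE 0.08). In the lists with no call between the lines the smallest p-values belonged to Epas1 (0.15, SE 0.09) and Siah1a (-0.18, SE 0.11), to Hk2 (0.25, SE 0.12) and Pdk1 (-0.15, SE 0.08), to Tle1 (-0.33, SE 0.08) and Hipk2 (0.29, SE 0.10), and to Id2 (-0.37, SE 0.09) and Ascl2 (0.23, SE 0.07). Lgr5, the relative of Lgr4 among the members, had the opposite sign, with line B minus line A at 0.29 (SE 0.09, adjusted p = 0.243).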

How the data were processed

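Per the labels, the authors normalized the array intensities by RMA in Affymetrix Expression Console, and the deposited table holds log2 values, 1 column per sample, between 2.61 and 14.12. RMA equalizes the arrays' distributions, which removes any global shift, and compresses changes of dim probe sets. The version and the array build are not given in the sources used here. Of 35556 probe sets, 21789 carry 1 gene symbol; 21698 of these matched the RefSeq gene table by gene ID, and 999 genes had several probe sets.

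Tests used limma 3.58.1 in R 4.3.3 (lmFit, eBayes). P-values were adjusted by Benjamini-Hochberg over the 19938 genes, and 0.05 was the threshold: a model of line and tamoxifen (5 residual degrees of freedom) for effects over both lines and between lines, and the 4 group means (4 degrees of freedom) for each line and their difference. The fits were tested on 3 simulated sets with independent noise for each gene and array. Those sets held no line effect and no shared replicate axis, so the test does not cover the axis described above. The number of arrays limits the precision. Alternatives were other array scalings, array weights, a trended robust eBayes, leaving out the 30% dimmest genes, averaging a gene's probe sets, each line alone, no term for the line, and leaving out samples. Replicate numbers follow sample order and pair nothing.

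The members and the pathway and marker lists were chosen with earlier results of these data known, so the counts are descriptions. Values of all members are accounted for; other pathway genes were named, over both lines and between the lines, if they passed, at most 4 a list, otherwise the 2 with the smallest p.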

Additional observations from a re-analysis of the deposited data

Results flagged for a closer look

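The change of 2 members with tamoxifen differed between the lines at an unadjusted p under 0.05 in limma's test of the difference, and neither passed the adjustment over all genes. For Lgr5 line B minus line A was -0.41, with both line B groups and line A with tamoxifen between 9.99 and 10.07 on the log2 scale and line A without tamoxifen at 9.51. For Myc it was 0.35, with line A with tamoxifen at 10.13 and line A without at 10.50. Each sign held in the 14 alternatives that gave a value. Groups of 2 samples are too small to single out an outlying sample.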

How the results depend on the processing

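Where the main count of calls was above 0, 50 of 85 counts under alternatives stayed within 1.5 times it; where it was 0, 78 of 81 were again 0. Of 128 medians of a set 121 moved by less than the spread between replicates, and no called member changed sign. Part of these medians could not move. The trended robust eBayes, each line fitted alone and the fit with no line term leave the estimates unchanged. Leaving out an array of 1 line also leaves the medians of the other line unchanged. Array weights gave 983 genes for tamoxifen over both lines, with 4 members (Bnip3, Lgr5, Myc and Nkd2), 441 between the lines, 525 in line A, with 2 members (Lgr5 and Myc), and 1 in line B, and a HIF1 median between the lines of -0.01. A common median gave 63 genes in line A and 2 in line B, quantile normalization again 2 in line B, every named probe set on its own 183 probe sets in line A, and no term for the line 132 genes over both lines. Each line fitted alone gave 2 genes in line B and 543 in line A, with 1 member, Lgr5. The cause of these shifts was not tested.

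Leaving out 1 sample at a time gave 58 to 353 genes over both lines (fewest without line A PKM1 replicate 2), 116 to 283 between the lines (fewest without line A PKM1 replicate 1), 0 to 143 in line A and 0 to 6 in line B. Members called between the lines ranged from 0 to 2 and stayed at 0 in the other comparisons. HIF1 medians ranged from 0.01 to 0.10 in line A and from -0.09 to -0.01 between the lines, and beta-catenin medians from -0.06 to 0.01 over both lines and from -0.08 to 0.06 in line B. With line B PKM1 replicate 1 and PKM2 replicate 2 both left out, an alternative added after seeing the data as was that of the dimmer probe sets, 493 genes passed over both lines, members called between the lines were 2 (Adm and Egln3), and the beta-catenin median in line B was 0.07. No paired analysis was possible because the labels number no replicates.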
